A study of Mus musculus with 4 samples.

Results

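Transcripts of the 4 ID genes (Id1, Id2, Id3 and Id4) and of the 3 E protein genes (Tcf3, Tcf4 and Tcf12) were compared between γδ T cells of mouse fat that did and did not express PLZF. The 7 genes were chosen by name, as every row of the deposited expression tables under the symbols ID1, ID2, ID3, ID4, TCF3, TCF4 and TCF12, and are given here by their mouse names. They are 7 of 46108 genes, and each had 1 row. Of the 7, 4 were high enough to be tested (Id2, Tcf3, Tcf4 and Tcf12) and 3 were not (Id1, Id3 and Id4).

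Cells came from the epididymal fat, a visceral depot, of male C57Bl/6 mice aged 16 to 22 weeks in which GFP reports PLZF, the transcription factor encoded by Zbtb16. Each subset had 2 libraries, coded A7 and B7 for PLZF+ cells and A6 and B6 for PLZF- cells in the table columns. A library was made by SMART-seq2, which copies whole transcripts from few cells, and held the cells of 10 pooled mice. No label explains the codes or says whether the subsets share mice. Both subsets carry the reporter, and how the sort was gated is not stated in the labels.

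E proteins are basic helix-loop-helix transcription factors that pair with each other or with tissue-specific partners and bind the E box, a short DNA motif written CANNTG. ID proteins have the helix-loop-helix but lack the basic region that touches DNA, so an ID protein paired with an E protein keeps it off its sites. In T cells the balance of the families is known to follow antigen receptor signals, to set the αβ and γδ lineage choice, and to separate naive from effector states. Id2 is known for its need in natural killer (NK) cells, innate lymphoid cells and effector T cells, Id3 for its induction by the γδ antigen receptor, and Tcf4, which encodes the factor E2-2, for its role in plasmacytoid dendritic cells.

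Promoter windows from RefSeq (GRCm38.p6, the assembly of mm10) hold 250 bases before to 50 after each gene start, and 5 of the 7 genes had one that is used here. They are shown because the families act through E boxes, which could also stand in the genes' own promoters. The windows of Id2 (chr12:25096043-25096342, minus strand), Id3 (chr4:136143572-136143871, plus strand) and 1 of 3 starts of Tcf12 (chr9:72111770-72112069, minus strand) read as follows, 5′ to 3′, with CANNTG matches in capitals.
Id2: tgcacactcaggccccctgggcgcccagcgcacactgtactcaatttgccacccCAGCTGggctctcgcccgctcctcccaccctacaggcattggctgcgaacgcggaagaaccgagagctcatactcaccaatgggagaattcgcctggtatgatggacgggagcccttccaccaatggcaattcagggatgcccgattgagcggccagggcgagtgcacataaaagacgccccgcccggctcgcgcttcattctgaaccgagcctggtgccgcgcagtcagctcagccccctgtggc
Id3: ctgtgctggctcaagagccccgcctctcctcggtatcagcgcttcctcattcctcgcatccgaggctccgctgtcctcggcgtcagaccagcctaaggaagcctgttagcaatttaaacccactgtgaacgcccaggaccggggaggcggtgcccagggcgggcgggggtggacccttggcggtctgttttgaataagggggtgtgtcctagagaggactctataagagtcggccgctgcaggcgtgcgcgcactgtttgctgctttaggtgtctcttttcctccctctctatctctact
Tcf12: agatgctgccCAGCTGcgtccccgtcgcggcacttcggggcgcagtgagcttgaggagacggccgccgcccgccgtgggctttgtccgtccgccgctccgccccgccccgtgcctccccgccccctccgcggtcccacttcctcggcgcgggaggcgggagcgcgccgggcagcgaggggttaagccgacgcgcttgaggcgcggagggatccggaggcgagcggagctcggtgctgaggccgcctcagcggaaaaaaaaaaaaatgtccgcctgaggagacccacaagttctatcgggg
CANNTG reads the same on both strands as a pattern, and 72.3% of 32851 windows of this length held at least 1 match. The Id2 window held 1, CAGCTG, whose first base lies at position -196 from the start. The Tcf12 window above also held 1 CAGCTG, at -240, and 16.3% of all windows held that form. The form CACCTG, which is CAGGTG on the other strand, stood in 20.2% of windows and in none of the windows of these 5 genes. Both forms are cases of CANNTG, so the shares overlap. Id3 and Id4 had no CANNTG match, Tcf3 had 1 (CACTTG at -54), and the other Tcf12 windows had 1 (CATGTG at -5) and 2 (CAAGTG at -149 and CACTTG at 18). A match is a run of letters, and these data do not measure binding.

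The libraries held 1837510 (A7) and 2035070 (B7) estimated reads in PLZF+ cells and 744569 (A6) and 981885 (B6) in PLZF- cells, without the rRNA precursor Rn45s. A value of 3 reads, taken as the detection floor, was 1.86 and 1.67 normalized counts in the PLZF+ libraries, against 5.06 and 3.66 in the PLZF- libraries. The normalized count is the authors' count per gene divided by a factor per library. Every library held the CD3 chains that mark T cells, with Cd3e at 552 and 661 normalized counts in PLZF+ cells, against 182 and 367 in PLZF- cells. Zbtb16, the gene the sort reports, had 2899 and 2921 normalized counts in PLZF+ cells, against 310.4 and 699 in PLZF- cells, in the direction of the labels. In bulk libraries like these, fewer cells of a type and less RNA per cell cannot be told apart.

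Id2 and Tcf4 were both lower in PLZF+ cells, while Tcf12 and Tcf3 did not pass the test. Genes with a mean of at least 10 normalized counts were tested with limma on log2(normalized count + 1), and p-values were adjusted by Benjamini-Hochberg over 9262 genes, with a threshold of 0.05. At that threshold 7.48% of all tested genes were called, 2.5% higher and 4.98% lower in PLZF+ cells, and 2 of the 4 tested members were called. The median log2 fold change of all tested genes was -0.03, with quartiles of -0.58 and 0.54. Fold changes on this scale understate the change of low genes. Each p-value rests on the spread between pools, not between mice, and limma draws that spread partly from the other genes.

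**Figure D1:**
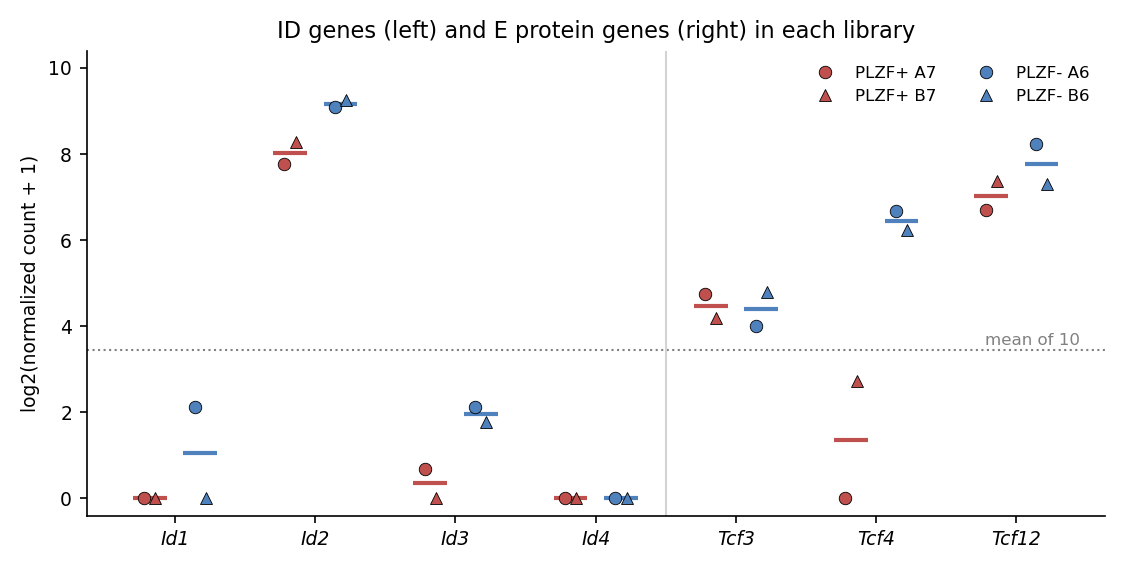
Normalized counts of the 7 genes as log2(normalized count + 1) on the vertical axis, with PLZF+ libraries in red and PLZF- libraries in blue (circles A, triangles B; bars are means). Id2 and Tcf4 lie lower in both PLZF+ libraries, Tcf3 and Tcf12 overlap, and Id1, Id3 and Id4 lie below the dotted line at a normalized count of 10.

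Among the ID genes, Id2 (chr12:25093799-25096092, minus strand) carried nearly all of the signal. It had 218 (A7) and 310.3 (B7) normalized counts in PLZF+ cells, against 542 (A6) and 609.8 (B6) in PLZF- cells. Both PLZF+ libraries lay below both PLZF- libraries, as they did for 27.2% of tested genes, and the subsets separated in either direction for 51.3% (24.1% higher in PLZF+ cells). The log2 fold change was -1.14 ± 0.24 (SE, 95% interval -1.67 to -0.61, adjusted p = 0.012, limma), and the level in PLZF- cells was 2.20 times that in PLZF+ cells (interval 1.53 to 3.18). By p-value Id2 ranked 380 of the 9262 genes.

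The estimated reads behind these values were 352 and 556 in PLZF+ libraries, against 321 and 500 in PLZF- libraries. From reads alone the ratio of PLZF+ to PLZF- cells was 0.459 (95% interval 0.417 to 0.505), which covers counting error only, since PCR copies are not independent molecules. In FPKM, which corrects for gene length and depth, Id2 averaged 149 ± 38.0 in PLZF+ and 325 ± 24.1 in PLZF- cells (SD, n = 2 each). That level was above 95.8% of tested genes in PLZF+ cells and above 98.2% in PLZF- cells, so Id2 was among the abundant transcripts of both. The authors' deposited table also lists Id2 as lower in PLZF+ cells, with a q-value of 0.0096, where it lists 3.91% of 9226 loci as called lower.

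The call of Id2 rested on all 4 libraries together. With any 1 of them left out the log2 fold change lay between -1.39 and -0.89 and the adjusted p between 0.071 and 0.27. In the FPKM table the log2 fold change was -1.15 with an adjusted p of 0.051, and without trend and robust moderation in limma the adjusted p was 0.25.

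Id1, Id3 and Id4 were at or under the floor of 3 reads in each library. Id1, an ID gene known for its response to bone morphogenetic proteins (chr2:152736251-152737410, plus strand), had 0 normalized counts in both PLZF+ libraries, against 3.37 (2 reads) in PLZF- library A6 and 0 in B6. Id3 (chr4:136143497-136145755, plus strand) had 0.619 (1 read) in PLZF+ library A7 and 0 in B7, against 3.37 in PLZF- library A6 and 2.44 in B6, which is 2 reads each. Id4, best known from neural cells, had 0 in all 4 libraries, as did its antisense neighbour A330033J07Rik. The deposited row of Id4 spans chr13:48044231-48264036, while the gene is annotated at chr13:48261228-48266026, plus strand. No fold is given for these genes, because a difference would not be detectable at this depth.

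Among the E protein genes, Tcf4 (chr18:69344492-69688320, plus strand) was near absent from PLZF+ cells. It had 0 (A7) and 5.58 (B7) normalized counts in PLZF+ cells, against 101 (A6) and 74.4 (B6) in PLZF- cells. The means were 2.79 in PLZF+ and 87.8 in PLZF- cells. Tcf4 thus reached the minimum mean of 10 only through PLZF- cells, and with such values it could only be called lower. The subsets did not overlap, and the PLZF+ values came from 0 and 10 reads, while the PLZF- values came from 60 and 61 reads in shallower libraries. The log2 fold change was -5.10 ± 0.99 (SE, interval -7.24 to -2.95, adjusted p = 0.0071, limma). From reads alone the ratio of PLZF+ to PLZF- cells was 0.0343 (interval 0.0160 to 0.0652).

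Tcf4 in FPKM was 0 and 4.39 in PLZF+ libraries, against 18.8 and 14.9 in PLZF- libraries. The mean was above 8.08% of tested genes in PLZF+ cells and above 58.3% in PLZF- cells, a middling level. Each normalized count of Tcf4 stood for 0.786 FPKM in PLZF+ library B7, but for 0.186 and 0.201 in PLZF- libraries A6 and B6. For Id2 it stood for 0.560 to 0.569 FPKM in all 4 libraries. Tcf4 has 62 annotated transcripts and Id2 has 3.

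The call of Tcf4 depended on the PLZF- libraries and its size on the PLZF+ libraries and the pseudocount. Without PLZF+ library A7 the log2 fold change was -3.74 and without B7 it was -6.46, both called. Without PLZF- library A6 the adjusted p was 0.20 and without B6 it was 0.10. With a pseudocount of 0.25 the log2 fold change was -6.17, and with 4 it was -3.87. In the FPKM table the log2 fold change was -4.65 with an adjusted p of 0.20, and without trend and robust moderation the adjusted p was 0.095. The authors' deposited table does not call Tcf4, with a q-value of 0.59.

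Tcf12, which encodes HEB, a factor needed in thymocyte development (chr9:71842543-72111847, minus strand), was the most abundant E protein gene. It had 103 (A7) and 165 (B7) normalized counts in PLZF+ cells, against 300.3 (A6) and 157 (B6) in PLZF- cells. The subsets overlapped, since PLZF+ library B7 lay above PLZF- library B6. The log2 fold change was -0.74 ± 0.37 (SE, interval -1.54 to 0.06, adjusted p = 0.29, limma), so a difference of the size seen for Id2 lies within its interval. No alternative setting called it.

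In FPKM, Tcf12 was 21.4 and 30.1 in PLZF+ cells and 58.9 and 21.2 in PLZF- cells. Its mean was above 73.3% of tested genes in PLZF+ cells and above 81.8% in PLZF- cells. The locus also contains Rpl15-ps2, a ribosomal protein pseudogene on the opposite strand, which the table lists separately with at most 2.48 normalized counts. No label states whether the counting used strand, so reads from opposite strands cannot be told apart.

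Tcf3, which encodes the E12 and E47 forms of E2A (chr10:80409165-80433653, minus strand), had 26.0 (A7) and 17.3 (B7) normalized counts in PLZF+ cells, against 15.2 (A6) and 26.8 (B6) in PLZF- cells. The values of the subsets interleaved. The log2 fold change was 0.07 ± 0.69 (SE, interval -1.43 to 1.56, adjusted p = 0.97, limma), and its sign turned without PLZF+ library A7 (-0.21) or PLZF- library A6 (-0.32). With 9 to 42 reads per library, a change of up to 2-fold either way lies inside that interval. In FPKM Tcf3 was 4.73 and 5.58 in PLZF+ cells and 4.47 and 4.93 in PLZF- cells, means above 23.4% of tested genes in PLZF+ cells and 16.8% in PLZF- cells.

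**Figure D2:**
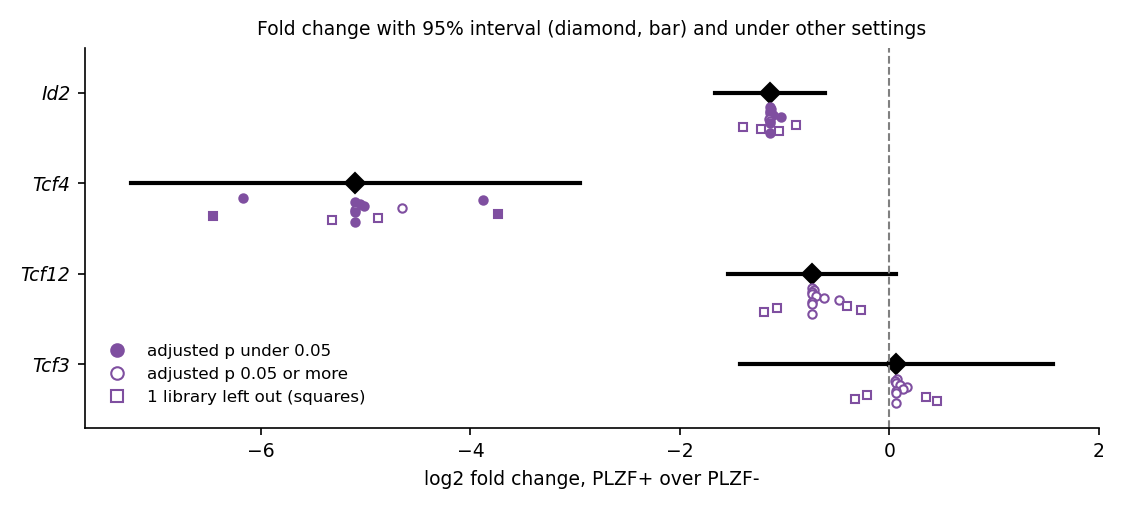
Log2 fold changes of the 4 tested genes, PLZF+ over PLZF-, on the horizontal axis, with the 95% interval as a bar and each alternative setting as a purple point (filled where the adjusted p is under 0.05, squares where 1 library is left out). Id2 and Tcf4 stay left of 0 in every setting run, Tcf12 also lies left of 0 with an interval that crosses it, and Tcf3 lies on both sides.

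Per length, the order of the 7 genes was led by Id2 and then Tcf12 in both subsets. In PLZF+ cells Tcf3 (mean of 5.16 FPKM) and Tcf4 (2.19 FPKM) followed, with both Tcf3 libraries above both Tcf4 libraries. In PLZF- cells the order below Tcf12 was Tcf4 (16.9 FPKM), Tcf3 (4.70 FPKM), Id3 (3.13 FPKM) and Id1 (1.52 FPKM), of which Id3 and Id1 overlapped. Tcf4 therefore stood above Tcf3 in both PLZF- libraries and below it in both PLZF+ libraries.

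Summed over each family, the ID genes had 123 and 176 FPKM in PLZF+ libraries, against 314 and 346 in PLZF- libraries. Id2 made up 99.4% and 100% of that sum in PLZF+ cells and 98.1% and 99.0% in PLZF- cells. The E protein genes summed to 26.1 and 40.04 FPKM in PLZF+ libraries, against 82.1 and 41.1 in PLZF- libraries, with the B libraries of the subsets close to each other. Tcf12 gave 81.9% and 75.1% of it in PLZF+ cells and 71.7% and 51.7% in PLZF- cells. Tcf4 gave 0% and 10.95% in PLZF+ cells and 22.9% and 36.3% in PLZF- cells, which did not overlap. The share of 10.95% rests on 10 reads. In normalized counts the shares were 0% and 2.98% in PLZF+ cells, against 24.3% and 28.8% in PLZF- cells.

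The ratio of the ID sum to the E protein sum was 4.70 and 4.39 in PLZF+ libraries (mean 4.54 ± 0.219) and, in PLZF- libraries, 3.83 and 8.42 (mean 6.12 ± 3.25, both SD over 2 libraries). The subsets overlapped in this ratio, and the PLZF- libraries spanned more than the PLZF+ libraries. The ratio concerns transcripts and gives no measure of protein.

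**Figure D3:**
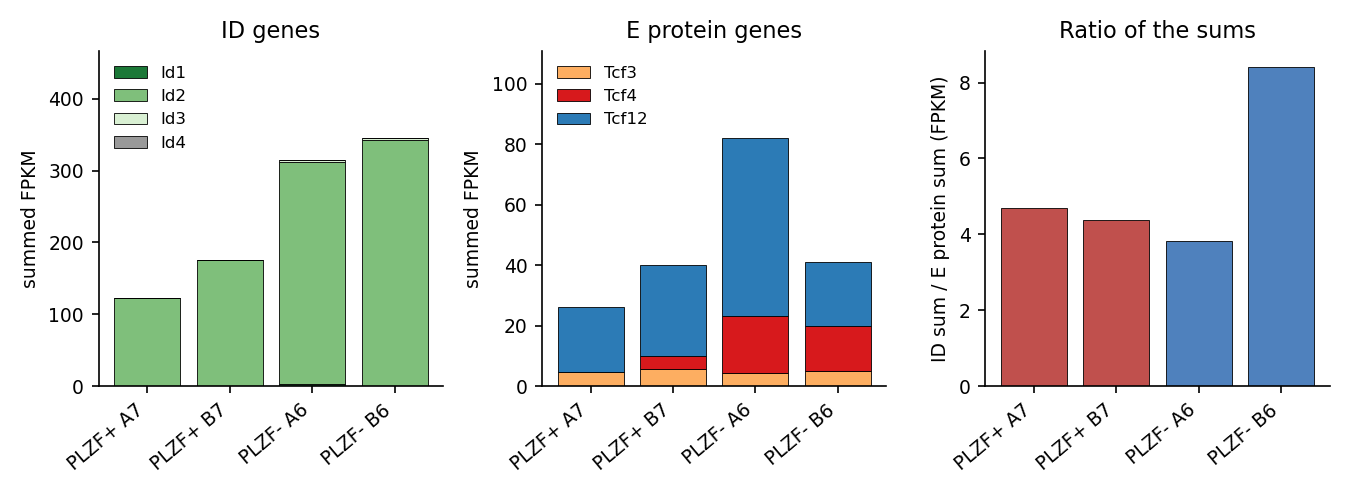
Summed FPKM of the ID genes (left) and the E protein genes (middle) in each library, stacked by gene, and the ratio of the sums (right). Id2 fills nearly all of the ID sum, Tcf12 gives the largest share of the E protein sum in each library, Tcf4 shows mainly in the PLZF- libraries, and the ratio overlaps between the subsets.

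Id2 and Tcf4 were lower in PLZF+ cells, and so were markers of some other cell types, which were summed over lists in each library. The lists were chosen with earlier results of these data known. Among all tested genes 4.98% were called lower and 2.5% higher in PLZF+ cells. Of 18 loci that mark NK and innate lymphoid cells, in which Id2 is known to be high, 15 of 16 tested were lower in PLZF+ cells. None were higher. In this and the other marker lists, loci near 0 in PLZF+ cells reached the minimum mean through PLZF- cells alone. Such loci could only be called lower, so these counts are a description. Their sum was 380.3 and 183 normalized counts in PLZF+ cells, against 6751 and 6063 in PLZF- cells. Within each subset this sum was higher in the A library, where Id2 was lower, so the 2 share only the direction between subsets. Ncr1, the NK receptor NKp46, had 3.72 and 3.91 normalized counts in PLZF+ cells, against 693 and 694 in PLZF- cells. Il1rl1, which encodes the IL-33 receptor and marks type 2 cells of that kind, had 21.1 and 1.12 normalized counts in PLZF+ cells, against 1230 and 805 in PLZF- cells. Il1rl1 lost its call without A6, while Ncr1 kept it with any 1 library left out. Several other called markers of this list also lost the call without A6 or B6. γδ T cells can express several of these genes too, and their part in the Id2 result was not tested.

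Of 20 loci that mark plasmacytoid dendritic cells, the cells that depend on Tcf4, 11 were tested. Of these, 5 were lower and 0 higher in PLZF+ cells, beside 4.98% and 2.5% of all tested genes. Here too, loci near 0 in PLZF+ cells were tested through their PLZF- values alone and could only be called lower. The 20 loci summed to 248 and 161 normalized counts in PLZF+ cells, against 1699 and 1492 in PLZF- cells. Of the 20, 12 were at 0 in both PLZF+ libraries. Siglech, a receptor of these cells, was at 0 in both PLZF+ libraries and had 145 and 90.2 normalized counts in PLZF- libraries. Irf8, a factor of dendritic cell development, had 4.95 and 16.2 normalized counts in PLZF+ cells, against 241 and 159 in PLZF- cells. Siglech lost its call without A6 or B6, and Irf8 without A6. Without trend and robust moderation in limma Irf8 was not called either (adjusted p = 0.056). The locus Ly6a/Ly6c1/Ly6c2, counted for Ly6c2, gave 60.1 and 45.8 of the PLZF+ sums and 590 and 815 of the PLZF- sums. It also holds genes outside the list. Of the 6 tested markers without a call, Bst2, Irf7 and Runx2 had log2 fold changes of -0.34, -0.84 and -0.27. Those of Spib, Lair1 and Tlr7 were -4.96, -3.76 and -3.87. The part of these markers in the Tcf4 result was not tested.

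The remaining lists did not all have the direction of Id2 and Tcf4. The B cell markers Cd79a, Ms4a1, Pax5 and Ebf1, which mark cells with high E protein activity, were at 0 in all 4 libraries, and the B cell list summed to 35.9 and 33.5 normalized counts in PLZF+ cells, against 30.4 and 19.5 in PLZF- cells. Cd79b, the 1 tested gene of that list, had 33.4 and 29.6 normalized counts in PLZF+ cells, against 1.69 and 7.32 in PLZF- cells (adjusted p = 0.13). The myeloid list summed to 175 and 34.0 normalized counts in PLZF+ cells, against 1419 and 654 in PLZF- cells, with 3 of 6 tested loci lower and Mrc1, C1qa, C1qb, C1qc and Fcgr1 at 0 throughout. Of 10 tested γδ T cell markers 9 were higher in PLZF+ cells, the CD3 genes among them, and Cd27 was lower. Cd3d lost its call with any 1 library left out, Cd3e without A7, B7 or A6, and Cd3g without A7 or B7. Without trend and robust moderation all 3 lost it, and Cd3d and Cd3e also did in the FPKM table and without a filter. Of 4 tested αβ T cell markers limma called 0, and 0 had an unadjusted p under 0.05. That list summed to 501 and 485 normalized counts in PLZF+ cells, against 494 and 454 in PLZF- cells. Ikzf2 gave 289 and 314 of this in PLZF+ cells, against 321 and 320 in PLZF- cells. The untested Cd4, Cd8a and Cd8b1 were at 0 in both PLZF+ libraries and at 1.22 to 14.6 normalized counts in PLZF- libraries. Trac, in a locus with antigen receptor segments, had 92.3 and 89.8 in PLZF+ cells, against 67.5 and 35.4 in PLZF- cells. Trbc1 and Trbc2 were not measured. The endothelial list (178 and 162 in PLZF+, 118 and 128 in PLZF-) and the adipocyte and stromal list (27.3 and 5.02 in PLZF+, 18.6 and 42.7 in PLZF-) had 1 tested gene each and no call.

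**Figure D4:**
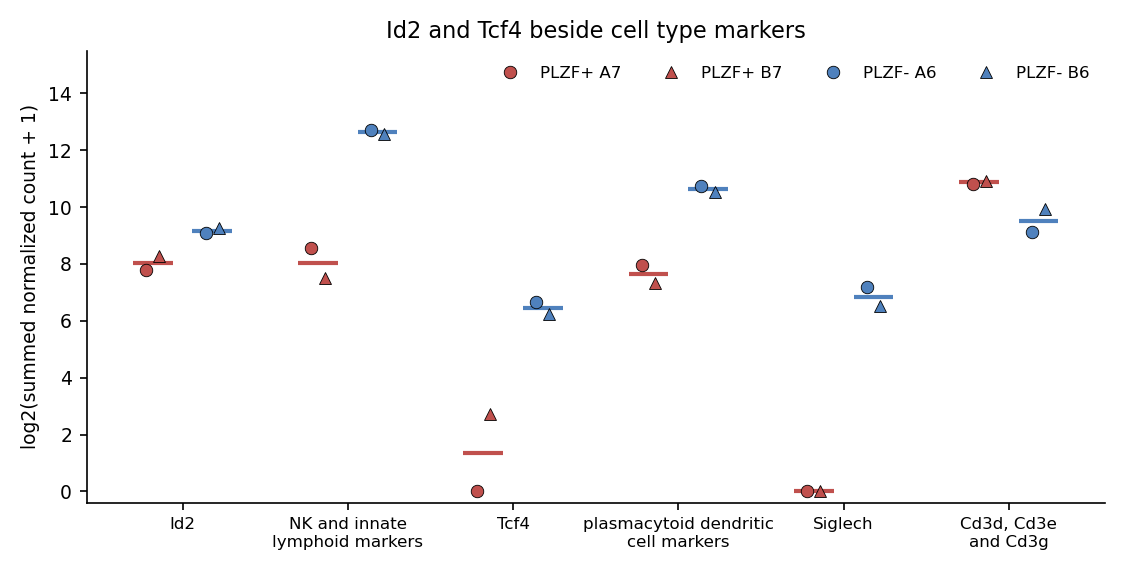
Id2 and Tcf4 beside summed markers, as log2(summed normalized count + 1) on the vertical axis, with PLZF+ libraries in red and PLZF- libraries in blue (circles A, triangles B; bars are means). Siglech is at 0 in both PLZF+ libraries, both marker sums are lower in PLZF+ libraries like Id2 and Tcf4, and the sum of Cd3d, Cd3e and Cd3g is higher.

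The genes around the families were read from 4 lists, of partners, of inducers and repressors, of protein stability and of regulated genes. Together they hold 101 genes, of which 66 were tested, 4 were higher and 7 lower in PLZF+ cells, which is 16.7% called beside 7.48% of all tested genes. Without Zbtb16, which the sort used, 3 of 65 were higher and 7 lower (15.4%). The median log2 fold change was -0.26 for the 66 genes and -0.27 without Zbtb16, against -0.03 over all tested genes. Several of these genes also stand in the marker lists above, so the lists are not separate from them.

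Of 15 tested genes listed as partners and co-regulators of E proteins, 3 were lower and 0 higher in PLZF+ cells. The median of their log2 fold changes was -0.38. The list is broad, and whether its genes pair with E proteins was not tested. Gata3, a T cell and type 2 lymphoid factor that also stands in the innate lymphoid list, had 111 and 101 normalized counts in PLZF+ cells, against 719 and 790.3 in PLZF- cells, in a locus shared with 9230102O04Rik. Its fold change, -2.82 ± 0.24 on the log2 scale (SE), had an adjusted p of 2.4e-05 by limma, and it was called in all 14 alternative settings. Bhlhe40, a basic helix-loop-helix repressor, had 450.3 and 292 normalized counts in PLZF+ cells, against 725 and 699 in PLZF- cells (log2 fold change -0.97, adjusted p = 0.027). Mxd4, an antagonist of MYC, had 133 and 131 normalized counts in PLZF+ cells, against 283 and 265 in PLZF- cells (-1.05, adjusted p = 0.036). Bhlhe40 and Mxd4 each lost the call with any 1 library left out. Runx1t1, a co-repressor of the family that binds E proteins, was at 0 in both PLZF+ libraries and had 28.7 and 46.3 normalized counts in PLZF- cells, at least 21.2-fold lower against a floor of 3 reads per library, with an adjusted p of 0.051. In 4 of 13 alternative settings it was called, with adjusted p of 0.013 to 0.017. The B lineage partners Pax5 and Ebf1 and the haematopoietic partners Tal1, Lyl1 and Lmo2 were at 0 in all 4 libraries.

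Of 20 tested inducers and repressors of Id genes, 1 was higher and 2 were lower in PLZF+ cells, and the median of their log2 fold changes was -0.21. The higher gene was Zbtb16 itself, with a log2 fold change of 2.64 ± 0.31. Stat4, which carries the IL-12 signal, had 525 and 509 normalized counts in PLZF+ cells, against 1741 and 1253 in PLZF- cells (log2 fold change -1.51 ± 0.20, adjusted p = 0.00060). Zeb2, an E box repressor of effector lymphocytes listed with Mir5129, had 11.8 and 6.70 normalized counts in PLZF+ cells, against 69.2 and 46.9 in PLZF- cells (-2.55, adjusted p = 0.034, lost with any 1 library left out). Egr1, an early gene of antigen receptor signals, had 39.0 and 12.8 normalized counts in PLZF+ cells, against 70.9 and 113 in PLZF- cells, and was not called (adjusted p = 0.071). It was called with a pseudocount of 4 (adjusted p = 0.044) and with the column letter as a term (0.0045). Receptor genes for bone morphogenetic proteins and TGF-β, and the SMAD genes, gave no call where they were tested. Bmpr1a had 33.4 and 38.5 normalized counts in PLZF+ cells, against 11.8 and 1.22 in PLZF- cells (log2 fold change 2.79, adjusted p = 0.13, limma). The log2 fold changes of Bmpr2 and Tgfbr1 were -1.31 and -1.27. Bmpr1b, Acvr1, Smad1, Smad6 and Smad9 were too low to be tested.

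None of 10 tested genes for the stability of ID and E proteins was called by limma, and 0 had an unadjusted p under 0.05. The median of their log2 fold changes was -0.09. Usp1, which removes ubiquitin from ID proteins, had 37.2 and 26.2 normalized counts in PLZF+ cells, against 42.2 and 68.3 in PLZF- cells (adjusted p = 0.46). The log2 fold change of Asb2, a ubiquitin ligase subunit, was -0.89 (adjusted p = 0.35). The ligase components Rbx1 and Cul1 had log2 fold changes of 0.83 and -0.51 (adjusted p = 0.35 and 0.51).

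Of 25 tested genes reported as regulated by E or ID proteins in lymphocytes, 4 were higher and 2 lower in PLZF+ cells, and the median of their log2 fold changes was 0.33. Sox13, a γδ T cell factor, had 381 and 314 normalized counts in PLZF+ cells, against 30.4 and 84.2 in PLZF- cells (log2 fold change 2.75 ± 0.43, adjusted p = 0.0018, lost when either PLZF+ library was left out). The list was named for regulation in either direction, so a call in it has no fixed direction.

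Also called were Zbtb16, counted above, Ikzf3 and Cxcr4, the last pair named here after their values were seen. Ikzf3, the Ikaros family factor Aiolos, was higher by 0.68 on the log2 scale (adjusted p = 0.016). The log2 fold change of Cxcr4, a chemokine receptor, was -1.15 (adjusted p = 0.039). Cxcr4 lost its call with any 1 library left out and Ikzf3 without A7, B7 or A6. Without trend and robust moderation Stat4 and Sox13 were not called (adjusted p = 0.16 and 0.12), nor were Bhlhe40, Mxd4, Zeb2, Ikzf3 and Cxcr4. The FPKM table did not call the last 5 either, Bhlhe40, Mxd4, Zeb2 and Cxcr4 were not called without a filter, and scaling to equal totals ended the calls of Bhlhe40, Mxd4 and Cxcr4. The thymic E protein targets Ptcra and Rag2 were at 0 in all 4 libraries.

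**Figure D5:**
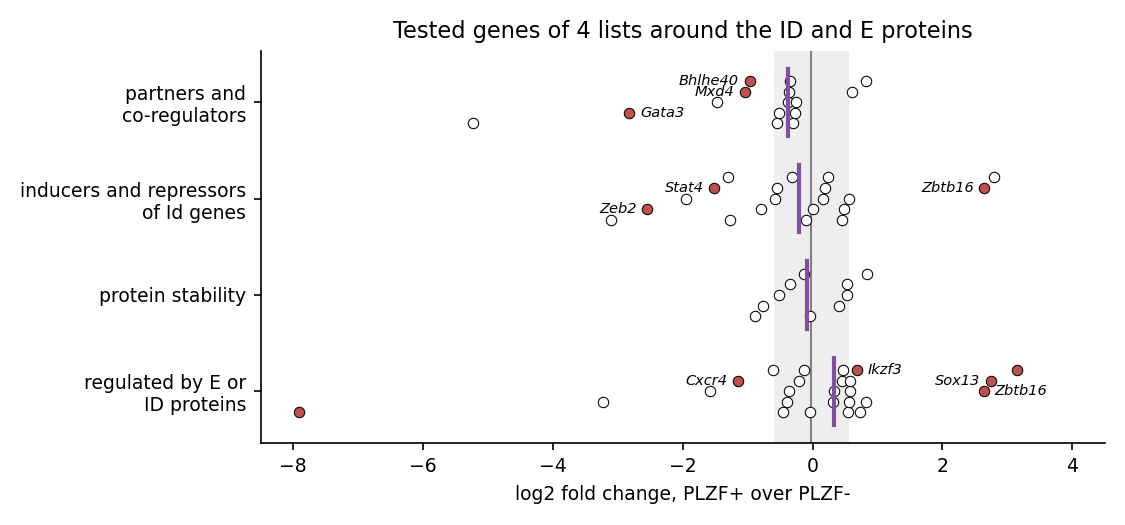
Log2 fold changes of tested genes in the 4 lists, PLZF+ over PLZF-, on the horizontal axis, with called genes filled (those described in the text are named), list medians in purple and the quartiles of all tested genes in grey. The list medians lie between -0.38 and 0.33, and the called genes lie on both sides of 0.

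The genes most like Id2 and Tcf4 over the 4 libraries were found by the root mean square difference of log2(normalized count + 1), each gene centred on its mean. For Id2 they were Tango6 (0.0286), Sbf1 (0.0329) and D1Ertd622e (0.0480). Of these Sbf1, with 107 and 147 normalized counts in PLZF+ cells, against 249.7 and 295 in PLZF- cells, was called (adjusted p = 0.039, lost with any 1 library left out). For Tcf4 they were Ubash3a (0.0480), Eepd1 (0.106) and Dgat2 (0.270). Ubash3a, a regulator of T cell receptor signalling, had 0 and 6.14 normalized counts in PLZF+ cells, against 101 and 76.8 in PLZF- cells. All 3 were called lower in PLZF+ cells, with adjusted p from 0.0052 to 0.0073, and each lost its call without PLZF- library A6 or B6, as Tcf4 did. Likeness over 4 libraries describes levels only.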

How the data were processed

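The submitters' processing notes name the build mm10 and the tools HISAT 0.1.6, SAMtools 1.2, Cufflinks 1.2 and Cuffdiff. They give neither the annotation nor the strand setting. The authors deposited normalized counts (a signal: counts divided by a factor per library, not raw counts), FPKM values, and Cuffdiff results with a p-value and a q-value per locus, for 46799 loci. The Cuffdiff columns do not name the subsets, so directions were read from the deposited FPKM means. Rows of 1 symbol were summed, which gave 46108 genes, 536 of them from more than 1 row. Of 49766 symbols, 37448 were named through GENCODE M21 or RefSeq.

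Low values came in steps, each worth 1 read, with 92.4% to 94.2% within 0.05 of a whole number, which gave the estimated reads. Rn45s took 26.8% to 33.2% of the total in 3 libraries and was listed at 0 in PLZF+ library B7, so it was left out. Tests used limma 3.58.1 (trend, robust, two-sided) in R 4.3.3 on log2(normalized count + 1), with no covariate. The fit was tested on simulated data. Intervals are at 95%. Other steps ran in Python 3.11.15 with matplotlib 3.10.9, scipy 1.17.1, numpy 2.4.6 and pandas 2.3.3.

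Groups came from the labels, and libraries are named by column code. The members and lists were chosen with earlier results of these data known. Genes named are the members, up to 4 genes of each pathway list with the smallest p, the leading or absent markers, and 3 genes most like each called member. Some genes that this rule takes count in their lists but are not reported here by name. Alternatives were scaling to median ratios or to equal totals, no filter or a minimum mean of 50, pseudocounts of 0.25 and 4, FPKM with a pseudocount of 0.1, no trend, the column letter as a term, rows not summed, and each library left out, where a lone library is assumed to vary like the others.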

Additional observations from a re-analysis of the deposited data

How the results depend on the processing

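Tcf12 kept its direction and stayed without a call in all 14 settings, Id2 kept its call in 8 of 14, and Tcf4 in 9 of 13. With FPKM the log2 fold change was -1.15 for Id2 and -4.65 for Tcf4, and without trend and robust moderation it was -1.14 and -5.10, each without a call. With 1 library left out, Id2 ranged from -1.39 to -0.89 and Tcf4 from -6.46 to -3.74, and Tcf3 from -0.32 to 0.46, turning sign without A7 (-0.21) or A6 (-0.32). The cause was not tested. Tcf4 was -6.17 with a pseudocount of 0.25 and -3.87 with one of 4, called in both. A minimum mean of 50 left no value for Tcf3 and Tcf4. Against 232 genes higher and 461 lower in the reported fit, FPKM gave 110 and 245, limma without trend and robust moderation 27 and 180, the column letter 427 and 693, and leaving out 1 library 22 to 246 and 103 to 274, with 29 higher and 274 lower without A7, 22 and 211 without B7, 101 and 103 without A6, and 225 lower without B6. Counted anew in each setting, list genes higher in PLZF+ cells numbered 4 in the reported fit, 0 by limma without trend and robust moderation and 1 to 4 with a library left out. List genes lower numbered 7 in the reported fit, 4 with no filter and with equal totals, 3 with FPKM, 3 without trend and robust moderation, 14 with the column letter and 2 to 4 with a library left out. With normalized counts in place of FPKM the ratio of ID to E protein sums was 1.68 in PLZF+ and 1.84 in PLZF- cells. No paired analysis was possible because the columns carry no replicate number. The column letter, which no label ties to shared mice, was fitted as a term, and Id2 and Tcf4 were called (adjusted p = 3.5e-05 and 5.5e-06). The edgeR and DESeq2 alternatives were not run, since too few low values were whole reads. Depth limits Id1, Id3 and Id4, at 0 to 2 reads per library, and Tcf3, at 9 to 42.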
